A study of Mus musculus with 6 samples.

Results

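The salivary progenitor transcription factors described here are 8 listed genes, *Trp63*, *Sox2*, *Sox9*, *Sox10*, *Foxc1*, *Hmga2*, *Ascl3* and *Pitx1*, taken from 47643 gene IDs in the count tables. They were chosen by name, with no cut on their values, though earlier results of these data were known. Their RNA was read in mouse submandibular salivary gland organoids (mSGOs), which are spheres of gland epithelium grown from dissociated adult tissue in Matrigel. Libraries were made from mSGOs of 3 female C57BL/6 mice aged 8 to 12 weeks. Each mouse was sampled on day 5 and again on day 7 of culture, so that each day has 3 libraries. All 6 were non-irradiated control cultures without drug, and all were kept in WRY medium, whose additions are conditioned media with Wnt3a and R-spondin1, EGF, FGF2, insulin, dexamethasone and the ROCK inhibitor Y27632. Organoids of this kind grow from the cells that survive dissociation and can divide in Matrigel, which limits them as a model of the whole gland. The question addressed was which of these factors are present in mSGOs and which differ between the days.

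Transcription factors of this kind set the identity of epithelial progenitors. p63, encoded by *Trp63*, is the factor that maintains basal layers of stratified and glandular epithelia. SOX2 and SOX9 act in the buds and ends of the developing gland, SOX2 also in acinar progenitors and SOX9 in distal and ductal cells, and SOX10 marks acinar, myoepithelial and neural crest-derived cells. FOXC1 is a forkhead factor expressed in early salivary epithelium, PITX1 a homeobox factor of the oral ectoderm, and ASCL3 a helix-loop-helix factor of a duct cell type related to ionocytes. HMGA2 is not a classical transcription factor but a chromatin protein that bends DNA at AT-rich sites. It is abundant in fetal and dividing progenitors, and its mRNA is a well-known target of the let-7 miRNAs, which bind sites after the stop codon and lower its level.

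Because let-7 pairs with *Hmga2* through its seed, bases 2 to 8 of the miRNA, the seed and its matches are shown here for the member that fell. Of the mouse miRNAs in RefSeq (GRCm38.p6), 11 share this seed. In the 3 below, capitals mark it.
mmu-let-7a-5p: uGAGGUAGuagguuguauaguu
mmu-let-7g-5p: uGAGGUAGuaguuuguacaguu
mmu-miR-98-5p: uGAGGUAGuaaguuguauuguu
The longest sequence after the stop codon of *Hmga2* in GENCODE vM39 (3021 bases) holds 4 perfect matches to these 7 bases. They start 58, 1295, 1733 and 2591 bases after the stop codon. The first and the last are shown with the bases before them, in the direction of the mRNA (minus strand of GRCm39), and capitals mark the match.
Hmga2 match 1, chr10:120200129-120200158: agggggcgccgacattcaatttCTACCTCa
Hmga2 match 4, chr10:120197596-120197625: gttgtacaatcaaaacacactaCTACCTCt
The search used the letters CTACCTC on the mRNA strand alone. At least 1 match was found in 2496 of 21594 protein-coding genes (11.6%), and at least 4 in 15 genes (0.0695%), of which *Hmga2* is 1. The same search found 0 matches in each of the 7 other members. The matches are a feature of the sequence, and small RNAs were not measured in these libraries. The *Hmga2* transcript that the annotation marks as canonical has only 37 bases after its stop codon. It ends at chr10:120297620, upstream of all 4 matches. The *Hmga2* count joins the transcript ends, so how much of it carries the matches was not measured.

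Of the 8 genes, 6 had counts and 2 had none. *Sox10* (ENSMUSG00000033006, GRCm39 chromosome 15, 79039108 to 79049469, minus strand) had 0 counts in all 6 libraries, and so had *Ascl3* (ENSMUSG00000035951, chromosome 7, 109326234 to 109330933, minus strand). A count of 0 allows up to 3 counts, which is 1.04 to 1.51 CPM (counts per 1000000 counts in genes, scaled by library) in a single library and 0.204 CPM over the 6 libraries together. *Sox10* and *Ascl3* RNA was therefore not detectable at this depth in either day. *Sox2* lay near the floor at day 5, with 6, 0 and 3 counts in mice 1, 2 and 3, and above it at day 7. The 5 others had at least 157 counts in every library.

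The test took every gene counted in 2 libraries or more, which 6 of the 8 were. To be past the threshold, a gene needed an edgeR adjusted p under 0.05 over all 15792 genes tested and an absolute log2 fold change over 0.6. *Sox2*, *Foxc1* and *Pitx1* were higher at day 7 and *Hmga2* was lower, while *Trp63* and *Sox9* did not pass. That is 4 of the 6 tested, against 12.0% of all genes tested. In the single directions, 3 were higher (7.22% of all genes tested) and 1 was lower (4.82%). The split over all genes depends on the scaling: 1140 were higher and 761 lower with TMM, against 950 and 1008 when libraries were scaled by their totals alone, and the calls of the 6 were the same under both. The days did not overlap in 4 of the 6, against 30.9% of all genes. With the mouse as a block in the fit, the same 4 genes passed. The members were chosen with earlier results of these data known, so these shares are a description and not a test of enrichment. Of the 15792 genes tested, 9634 had a mean of at least 5 CPM over the libraries, as all 6 members did. The share past the threshold among these 9634 was not taken, so the shares above include many genes with few counts. With filterByExpr, a filter that leaves out such genes, 1643 of 10090 passed. *Sox2*, *Foxc1* and *Pitx1* passed in that fit, and *Hmga2* did not.

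**Figure D1:**
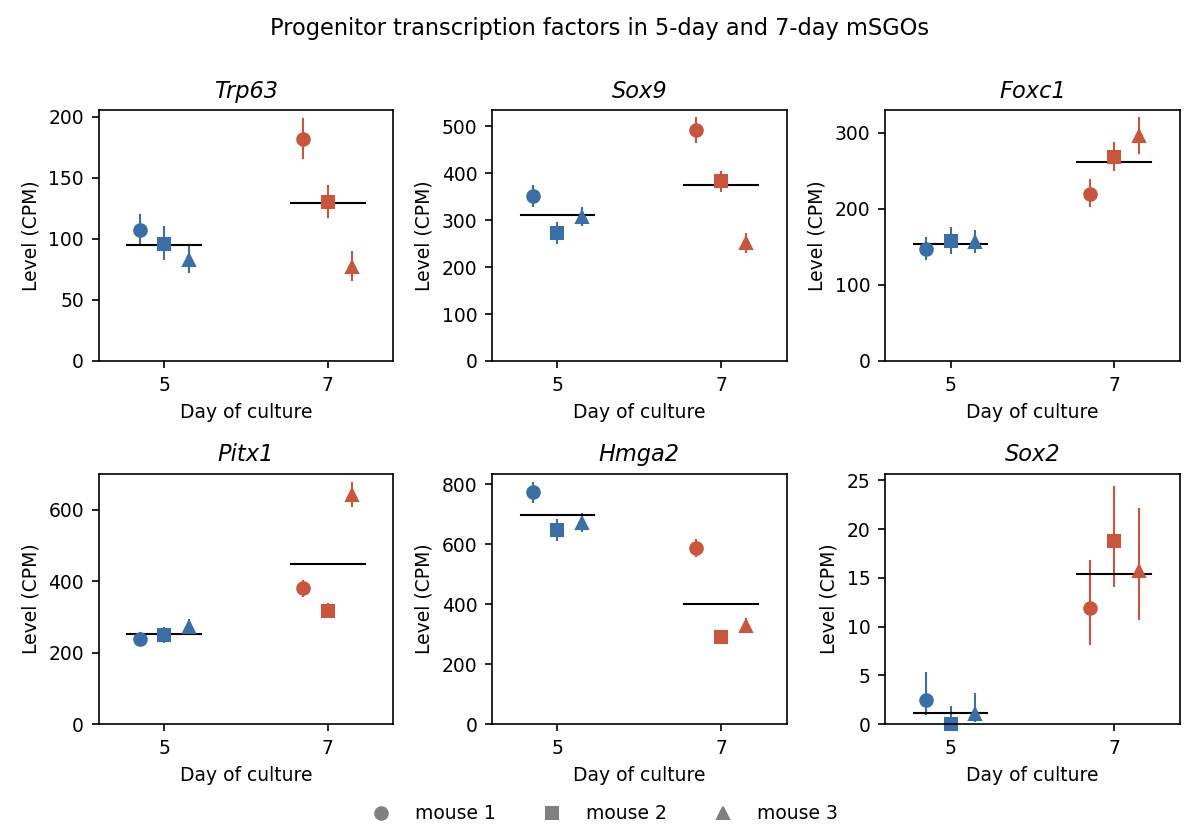
Level of the 6 members with counts in each library, in CPM on linear axes from 0, by day of culture. Each point is 1 library with its 95% Poisson counting interval, its shape gives the mouse and the black line is the mean of the day. *Foxc1*, *Pitx1* and *Sox2* lie higher at day 7 in all mice and *Hmga2* lower, while the days overlap for *Trp63* and *Sox9*.

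By level, *Hmga2* led at day 5 and *Pitx1*, *Hmga2* and *Sox9* lay together at day 7. Libraries were made from the 3′ ends of transcripts, so that levels were set side by side without dividing by length. The order of members is approximate. Molecular identifiers are not mentioned in the sources used here, and the ends of *Hmga2* and *Sox2* match or overlap other genes, as described below. At day 5 the mean levels were 696 ± 66.9 CPM for *Hmga2*, 310 ± 39.1 for *Sox9*, 253 ± 17.7 for *Pitx1*, 154 ± 5.76 for *Foxc1*, 95.1 ± 12.2 for *Trp63* and 1.19 ± 1.24 for *Sox2* (SD, n = 3). In this order only *Sox9* and *Pitx1* had overlapping libraries, with 273 to 351 and 239 to 273 CPM. At day 7 the order was *Pitx1* (447 ± 172 CPM), *Hmga2* (401 ± 161), *Sox9* (375 ± 121), *Foxc1* (261 ± 38.2), *Trp63* (129 ± 52.3) and *Sox2* (15.4 ± 3.43). The first 3 did not differ beyond their spread, and *Hmga2* and *Sox9* both overlapped *Foxc1*. *Hmga2* was among the most abundant RNAs of 5-day mSGOs, at rank 99 to 132 of the genes with a count in a library. At day 7 its rank was 167, 493 and 401 in mice 1, 2 and 3.

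*Sox2* (ENSMUSG00000074637, chromosome 3, 34704554 to 34706610, plus strand, a gene of 1 exon) showed the steepest rise of the members. Its level was 2.47, 0 and 1.08 CPM at day 5 in mice 1, 2 and 3 and 11.9, 18.7 and 15.7 CPM at day 7. Each 7-day library was above each 5-day library, but the levels stayed low, in the middle of the genes with a count (percentile 47.5 to 57.2). The log2 fold change was 3.58 ± 0.51 (SE, edgeR adjusted p = 0.000158). The fitted value leans on a day with few counts, 9 in all against 117 at day 7. The ratio of these sums after scaling was 12.4, with a 95% counting interval from 6.32 to 27.8. Of the 15792 genes tested, 245 had a larger fitted rise, and 70 of the 9634 with a mean of at least 5 CPM. *Sox2* stayed past the threshold in every fit without 1 library (3.11 to 4.53) and in all 11 alternatives with all libraries.

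*Sox2* lies inside the long non-coding gene *Sox2ot* on the same strand, with 0 exonic bases shared, and *Sox2ot* had 3 counts at day 5 and none at day 7. The predicted gene *Gm64654* covers the last 500 bases of *Sox2* on the other strand, and its ID has no entry in the count tables. Whether counting took strand into account is not given in the sources used here, so reads from that strand could not be told apart.

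*Foxc1* (ENSMUSG00000050295, chromosome 13, 31990616 to 31996459, plus strand) had the narrowest spread. It was at 147, 158 and 157 CPM on day 5 and at 220, 268 and 296 CPM on day 7 in mice 1, 2 and 3. All 7-day libraries were above all 5-day libraries, and the coefficient of variation was 3.74% at day 5 and 14.6% at day 7. The log2 fold change was 0.76 ± 0.19 (SE, edgeR adjusted p = 0.0111), with a rise of 0.58, 0.76 and 0.91 on the log2 scale in mice 1, 2 and 3. *Foxc1* also stands in a list of 10 stem/progenitor genes that the study names. Of these 3 passed, *Foxc1* included, all higher (30%, against 7.22% of all genes tested). *Nt5e*, the ecto-enzyme CD73, rose by 1.25 and *Cd24a*, a surface glycoprotein, by 0.76. *Cd44* (log2 fold change -0.33, edgeR adjusted p = 0.430) and *Itgb1* (0.32, edgeR adjusted p = 0.274), both adhesion receptors, did not pass. Without any 1 of the 3 day 5 libraries 1 of the 10 passed, and without day 7 replicate 3 there were 5, all higher. Without day 7 replicate 1, 4 passed, 3 higher and 1 lower, so the common direction depended on that library.

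*Pitx1* (ENSMUSG00000021506, chromosome 13, 55972864 to 55984005, minus strand) was also higher at day 7, with 1 library well above the others. It was at 239, 249 and 273 CPM on day 5 and at 380, 318 and 643 CPM on day 7. All 7-day libraries were above all 5-day libraries, and mouse 3 had the highest value in both days. The log2 fold change was 0.82 ± 0.23 (SE, edgeR adjusted p = 0.0260). Without day 7 replicate 3 it was 0.46 (edgeR adjusted p = 0.0315, range without 1 library 0.00690 to 0.144), which is under the minimum of 0.6. Its relative *Pitx3* had no count in any library.

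*Hmga2* (ENSMUSG00000056758, chromosome 10, 120197173 to 120313095, minus strand), the gene with the let-7 matches shown above, was the member that fell. It was at 772, 646 and 671 CPM on day 5 and at 586, 290 and 328 CPM on day 7. All 7-day libraries were below all 5-day libraries, and mouse 1 was the highest in both days. The log2 fold change was -0.79 ± 0.23 (SE, edgeR adjusted p = 0.0334), and the change in mice 1, 2 and 3 was -0.40, -1.15 and -1.03. Its paralog *Hmga1*, which codes for the related HMGA1 protein, had far fewer counted reads and did not pass. It had 10.3 CPM at day 5 and 15.3 at day 7 (log2 fold change 0.57, edgeR adjusted p = 0.344). Sequences that match *Hmga1* elsewhere in the genome were not searched for. Reads lost to such places were not measured, so its level beside that of *Hmga2* is not settled.

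Genes of cycling cells fell over the same days. Of 10 such genes, 9 passed, all lower (90%, against 4.82% of all genes tested). Their median log2 fold change was -1.05, against -0.01 over all genes tested. Their summed level was 1941 to 2251 CPM at day 5 and 785 to 1127 CPM at day 7. *Mki67*, the Ki-67 proliferation antigen, had a log2 fold change of -1.41, the mitotic kinase gene *Plk1* of -1.13, *Top2a*, a topoisomerase of dividing cells, of -1.04, and *Birc5* (survivin) of -1.06. Without day 5 replicate 2, 4 of the 10 passed. The helicase subunit gene *Mcm2* did not pass (-0.71, edgeR adjusted p = 0.0571). With the mouse as a block it did (edgeR adjusted p = 0.0481), and all 10 then passed. The share of cycling cells was not measured, and its part in the *Hmga2* result was not tested. In these bulk samples fewer cells of a type and less RNA per cell cannot be told apart, here and for each gene described.

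The genes around let-7 did not pass in either direction. Of 13 genes of the LIN28 and let-7 axis, 10 were tested and 0 were past the edgeR threshold, against 12.0% of all genes tested. With 10 genes, 0 cannot be set apart from that share. The smallest edgeR adjusted p among them was 0.127 (*Drosha*). At an unadjusted p under 0.05 there was 1, and DESeq2 and limma voom also gave 0. Without day 7 replicate 3, 1 passed, lower at day 7. *Lin28a* and *Lin28b*, whose proteins block let-7 maturation, and *Trim71*, a let-7 target, had 0 counts in every library. *Igf2bp2*, an RNA-binding protein gene that HMGA2 is known to control, had 133 ± 5.82 CPM at day 5 and 151 ± 17.1 at day 7 (SD, n = 3, log2 fold change 0.17, edgeR adjusted p = 0.602). *Tut7*, a uridyltransferase that acts on the let-7 precursor, did not pass either (0.20, edgeR adjusted p = 0.540).

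The count of *Hmga2* joins several transcript ends. The last 500 bases of its long transcript match a transcript of *Pes1* on the other strand over 320 bases at 94.1% identity and transcripts of *S2bpcox16* and *Cox16* over up to 502 bases at 92.4%. *S2bpcox16* and *Cox16* had 30 and 29 counts over all libraries, and *Pes1* 954. Another end matches *Hmga2-ps1* over 440 bases at 94.5% and *Gm38158*, which had 0 counts, over 295 bases at 94.6%. *Gm51785* on the other strand covers 263 of the last 500 bases of the canonical transcript. *Gm51785* and *Hmga2-ps1* have no entry in the count tables. How reads that align to several places were treated, and whether counting took strand into account, is not given in the sources used here. *Hmga2* itself had 8055 counts.

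*Trp63* (ENSMUSG00000022510, chromosome 16, 25502513 to 25710852, plus strand) did not pass, and its 7-day libraries spread around those of day 5. It was at 107, 95.9 and 82.5 CPM on day 5 and at 181, 130 and 76.9 CPM on day 7 in mice 1, 2 and 3. The days overlapped, since mouse 3 was the lowest in both and had its lowest value at day 7. The log2 fold change was 0.45 ± 0.25 (SE, edgeR adjusted p = 0.271), with a 95% interval from -0.04 to 0.94. Without day 7 replicate 3 it was 0.71 and past the threshold (edgeR adjusted p = 0.00812, range without 1 library 0.00812 to 0.754). The 3′ ends of transcripts do not separate the long (TA) and short (ΔN) start forms of p63.

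Basal genes known as targets of p63 followed no common direction. Of 20 such genes, 19 were tested and 1 passed (5.26%, against 12.0% of all genes tested), with a median log2 fold change of 0.17. There were 0 without day 5 replicate 2, 2 without day 7 replicate 1 and 4 without day 7 replicate 3. *Krt15*, a basal keratin, rose from 349 ± 69.0 to 875 ± 407 CPM (SD, n = 3, log2 fold change 1.32, edgeR adjusted p = 0.00440). *Krt14* and *Krt5*, the keratin pair of basal cells, were by far the highest of the list, with 7719 ± 1536 and 5965 ± 470 CPM at day 5. Neither passed (log2 fold change -0.24, edgeR adjusted p = 0.580, and -0.49, edgeR adjusted p = 0.140). The relatives of *Trp63* were lower in level than it: *Trp53* had 39.9 and 27.1 CPM and *Trp73* 7.06 and 7.64 CPM at day 5 and day 7.

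*Sox9* (ENSMUSG00000000567, chromosome 11, 112673009 to 112678586, plus strand) did not pass either. It was at 351, 273 and 307 CPM on day 5 and at 492, 383 and 251 CPM on day 7. The days overlapped, and mouse 3 was the only one with a lower value at day 7. The log2 fold change was 0.27 ± 0.22 (SE, edgeR adjusted p = 0.465), with a 95% interval from -0.16 to 0.71, so that a rise above the minimum of 0.6 lies within it. It passed in none of the fits without 1 library (0.03 to 0.49, edgeR adjusted p from 0.0356 to 0.932). Without day 7 replicate 3 it missed only the minimum fold change (0.49, edgeR adjusted p = 0.0356).

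Among 26 relatives of the members in the SOX, p53, FOXC, HMGA, ASCL and PITX families, 15 were tested and 2 passed (13.3%, against 12.0% of all genes tested), both higher. *Sox11*, a SOXC factor, had 4.36 ± 3.07 CPM at day 5 and 14.9 ± 3.18 at day 7 (SD, n = 3, log2 fold change 1.75, edgeR adjusted p = 0.00754). *Sox7*, a SOXF factor, had 3.93 ± 0.610 and 11.1 ± 4.54 CPM (1.52, edgeR adjusted p = 0.0176). Both rose from a few CPM, as *Sox2* did. *Sox4*, the other abundant SOX gene, had 288 ± 75.3 and 426 ± 140 CPM and did not pass (0.57, edgeR adjusted p = 0.140), nor did *Sox15* (-0.32, edgeR adjusted p = 0.395). In this list 10 genes had no count in any library. In the fits without 1 library 0 to 4 relatives passed: 0 without day 5 replicate 2 or 3 or day 7 replicate 2, 1 without day 5 replicate 1 and 4 without day 7 replicate 3. The genes without a count include *Sox8*, the SOXE relative of *Sox9* and *Sox10*, *Sox1* and *Sox3*, the SOXB1 relatives of *Sox2*, and *Ascl5*.

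**Figure D2:**
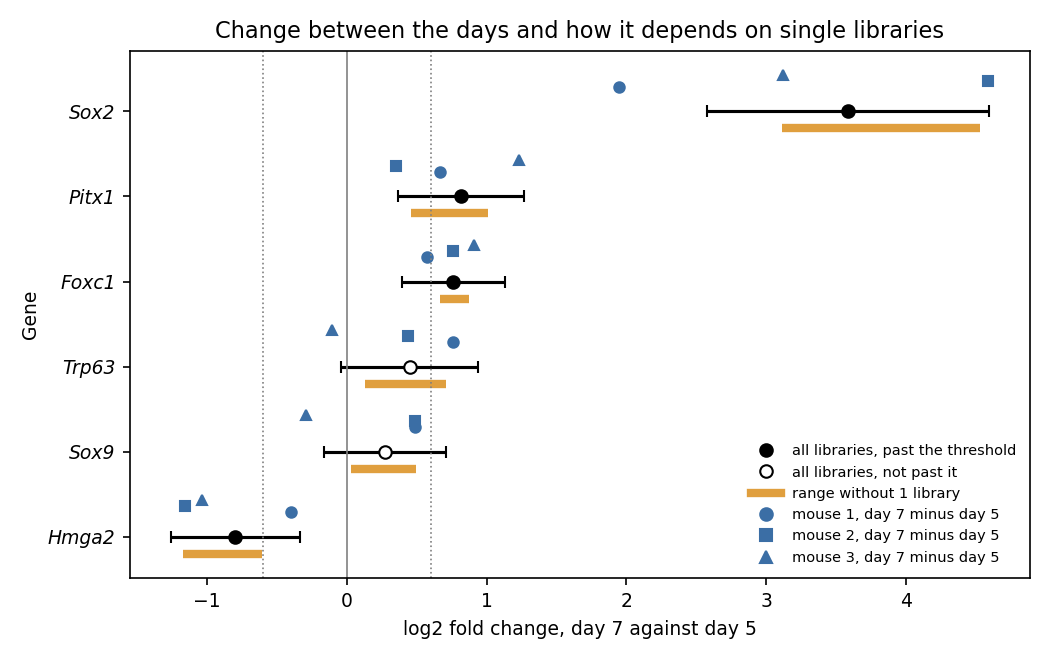
Change of the 6 tested members between the days, as log2 fold change of day 7 against day 5. Circles with bars are the edgeR estimates with their normal 95% intervals, filled where past the threshold; blue symbols are the differences within each mouse, orange bars span the fits without 1 library and dotted lines mark the minimum of 0.6. *Sox2* lies apart from the others, and the mice differ in direction for *Trp63* and *Sox9* alone.

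Single libraries bore on most of these calls, as the plot of changes with and without each library shows. *Foxc1* did not pass when any 1 of the day 5 libraries was left out, although its log2 fold change stayed between 0.67 and 0.87 in the 6 fits. *Hmga2* did not pass when day 5 replicate 1, 2 or 3 or day 7 replicate 2 was left out (-1.17 to -0.61 over the 6 fits). *Pitx1* did not pass when day 5 replicate 1, 2 or 3 or day 7 replicate 3 was left out (0.46 to 1.01). The count over all genes moved with the same libraries, from 1901 with all to 797 to 892 without 1 of the day 5 libraries, to 1045 when day 7 replicate 2 was left out, and up to 2472 and 2576 when day 7 replicate 1 or 3 was. No member changed sign in any of these fits.

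Ratios of counts within a library do not depend on how libraries are scaled. They were taken for the 10 pairs of the 5 members with at least 30 counts in every library. All 4 pairs with *Hmga2* moved the same way in each mouse, with no overlap between the days. For 1 count of *Hmga2* there were 0.222 counts of *Foxc1* at day 5 and 0.679 at day 7, as geometric means. The log2 ratio changed by 0.98, 1.92 and 1.95 in mice 1, 2 and 3. *Pitx1* to *Hmga2* went from 0.365 to 1.12, *Sox9* to *Hmga2* from 0.444 to 0.946 and *Trp63* to *Hmga2* from 0.136 to 0.319. Each of the 4 reached the smallest p that 3 against 3 libraries allow (two-sided exact permutation p = 0.1), which is 0.25 after Benjamini-Hochberg adjustment over the 10 pairs. The 4 pairs share *Hmga2*, whose days already did not overlap, so they are not independent results. The permutation did not keep the libraries of a mouse paired.

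The 6 pairs without *Hmga2* moved less on average, by at most 0.53 on the log2 scale. *Sox9* to *Foxc1* was the only one of the 6 with a common direction. It changed by -0.09, -0.28 and -1.21 in mice 1, 2 and 3, with overlapping days (exact permutation p = 0.3). *Foxc1* to *Pitx1* was 0.608 in both days as a mean, with changes of -0.09, 0.41 and -0.32 on the log2 scale in mice 1, 2 and 3. *Trp63* to *Sox9* was 0.306 at day 5 and 0.338 at day 7, with changes of 0.27, -0.05 and 0.19 in the 3 mice (exact permutation p = 0.4). Its SD between libraries was 0.20 at day 5 and 0.13 at day 7 on the log2 scale, while *Trp63* to *Pitx1* spread by 0.29 and 1.09.

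**Figure D3:**
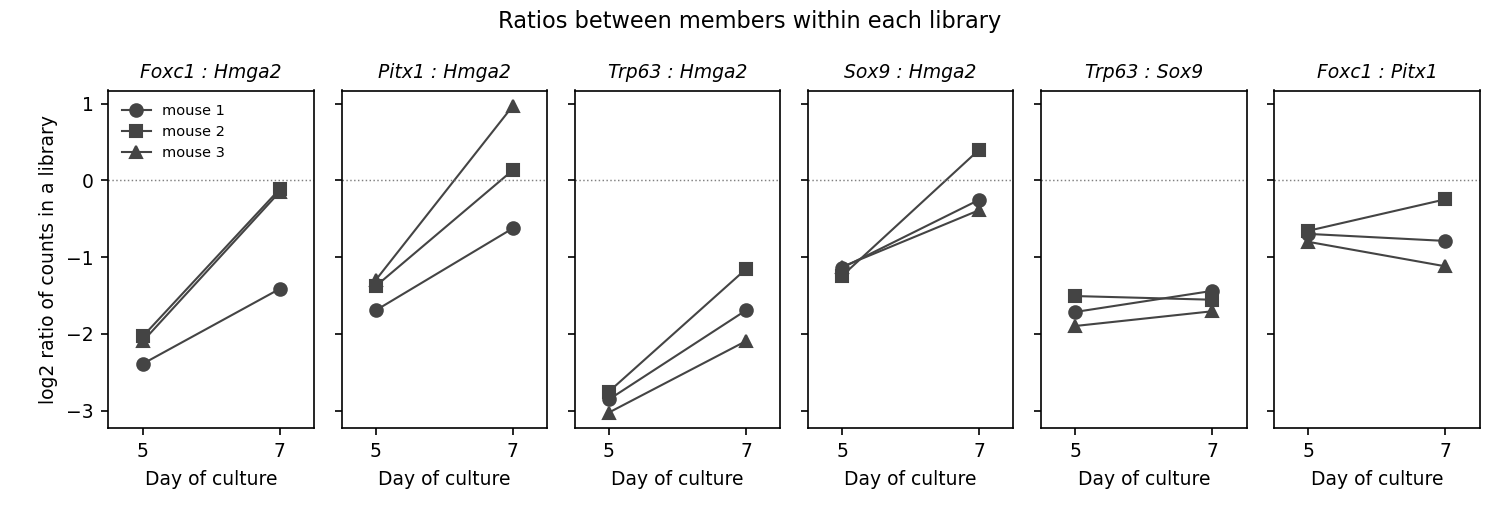
Ratios of counts between pairs of members in the same library, on a log2 scale, for day 5 and day 7, with 1 line per mouse. The ratios to *Hmga2* in the first 4 panels rise in every mouse, by 0.74 to 2.27, while those of *Trp63* to *Sox9* and of *Foxc1* to *Pitx1* have no common direction.

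Within day 7 the members did not spread alike. *Trp63* and *Sox9* were highest in mouse 1 (0.57 and 0.44 above their mean on the log2 CPM scale), near the mean in mouse 2 (0.09 and 0.08) and lowest in mouse 3 (-0.66 and -0.53). *Foxc1* had the reverse order, with -0.24, 0.05 and 0.19. *Pitx1* was highest in mouse 3 (0.59) and lowest in mouse 2 (-0.42), and *Hmga2* stood out in mouse 1 (0.62). At day 5 all 5 lay within 0.20 of their mean. With 3 libraries in a day these orders are a description, without a test. A wider spread at day 7 was not limited to these members, since the 7-day libraries as such lay further apart. Between pairs of 7-day libraries the chi-square per degree of freedom ranged from 12.3 to 19.9. The largest value for a pair of 5-day libraries was 3.24 and the smallest 1.99. Whether the members spread more than other genes at day 7 was not tested.

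**Figure D4:**
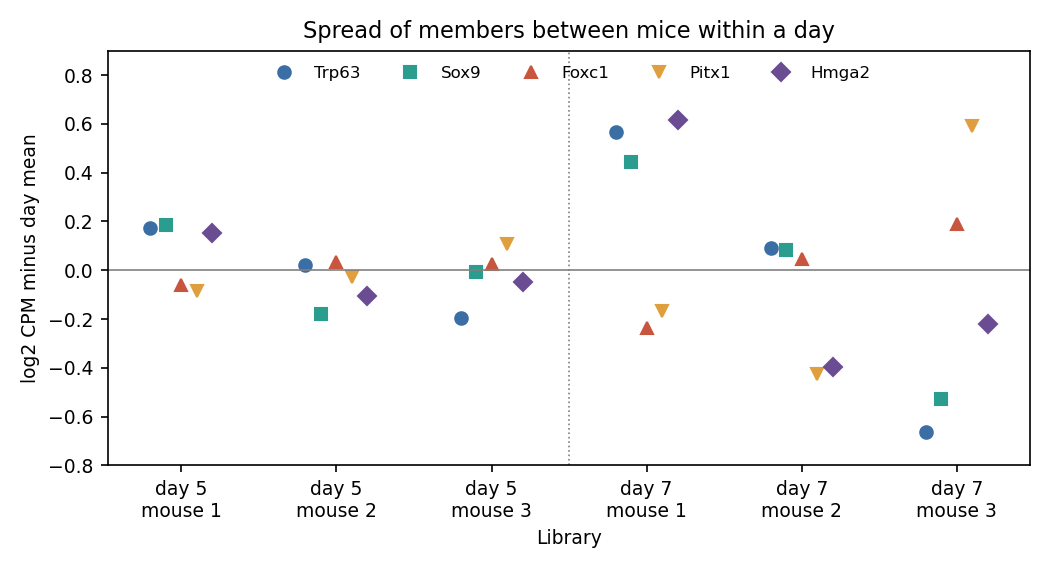
Deviation of 5 members from their day mean in each library, in log2 CPM with a prior count of 2. At day 5 all points lie within 0.20 of the mean; at day 7 *Trp63* and *Sox9* are high in mouse 1 and low in mouse 3, and *Foxc1* the reverse.

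For each member, named protein-coding genes with the most similar log2 CPM over the 6 libraries were taken, out of 8000 or 8001 with a mean of at least 10 CPM. These correlations include the difference between the days and rest on 6 libraries from 3 mice. The 3 nearest to *Foxc1* were *Sar1a* (Pearson r 0.999), *Hcfc1r1* (0.998) and *Sord* (0.997), and 290 genes had an r over 0.95 with it, the most of any member. The 3 nearest to *Trp63* were *Fam136a* (0.996), *Dlc1* (0.994) and *Tbca* (0.991), with 33 genes over 0.95, the fewest. *Sox9* was nearest to *Enc1* (0.993), *Dram1* (0.990) and *Chmp5* (0.989), with 45. *Hmga2* was nearest to *Dyrk3* (0.993), *Flrt3* (0.989) and *Nup88* (0.989), with 81. *Pitx1* was nearest to *Ccdc71*, *Tomm34* and *Ano10* (0.996 each), with 93, and *Sox2* was near to *Spop* (0.994) and *Stk39* (0.990), with 121.

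The 2 members without counts were read beside the cell types they are known for. *Sox10* marks acinar, myoepithelial and Schwann cells. Of 12 acinar markers, 11 have an ID in the count tables, and the secreted proteins *Smgc* and *Dcpp3* had 1 count each while *Prol1*, *Dcpp1*, *Dcpp2*, *Lpo* and *Car6* had 0. *Aqp5*, the acinar water channel, had 56 counts at day 5 and 106 at day 7 (log2 fold change 0.93, edgeR adjusted p = 0.123), and *Pip*, a secreted protein gene, went from 3 to 46 counts and passed (edgeR adjusted p = 0.0143). The call of *Pip* was lost without day 5 replicate 1, 2 or 3, without day 7 replicate 2, and with filterByExpr, robust = TRUE or limma voom. In the fit that blocks on the mouse, *Aqp5* passed as well (edgeR adjusted p = 0.0412). The amylase gene *Amy1* had 15 and 6 counts and did not pass. Of 6 myoepithelial markers, *Acta2* (smooth muscle actin) had 0 counts at day 5 and 40 at day 7 and passed (edgeR adjusted p = 0.00262). *Mylk* had 13 and 27 counts and *Cnn1* 0 and 4, and neither passed.

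Of 8 Schwann and neural crest markers, *Foxd3* and *Gfap* had 0 counts, and over all libraries *S100b* had 3 and *Cdh19* 2. *Ngfr* (log2 fold change 1.42, edgeR adjusted p = 0.00242), a receptor that basal epithelium also carries, and *Mbp* (0.78, edgeR adjusted p = 0.0233) were higher at day 7. Their summed level with the other 6 was 65.3 to 76.4 CPM at day 5 and 108 to 184 CPM at day 7. Of 6 melanocyte markers, *Dct*, *Tyrp1*, *Tyr* and *Mlana* had 0 counts, and *Mitf* had 24 and 48.

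*Ascl3* marks duct cells with features of ionocytes. Of 10 genes of that cell type, 5 had no count, among them *Foxi1* and *Foxi2*, the forkhead factors that define ionocytes, and *Bsnd*. *Cftr*, the chloride channel gene, had 2 counts at day 5 and 8 at day 7, and *Atp6v0d2*, a proton pump subunit gene, 2 and 5. *Atp6v1c2*, another subunit gene of that pump, was the 1 gene of 4 tested that passed (25%, against 12.0% of all genes tested). It was lower at day 7 (-1.41, edgeR adjusted p = 0.00614), with 183 and 69 counts. It did not pass without day 5 replicate 3 or day 7 replicate 2.

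Markers of epithelium were present in every library. All 8 were tested, with a summed level of 2636 to 2986 CPM at day 5 and 3301 to 4170 at day 7. Of them 3 passed (37.5%, against 12.0% of all genes tested). *Krt19* (log2 fold change 1.78) and *Cldn4* (1.89), a keratin and a tight junction gene of luminal cells, were higher. *Krt8* was lower (-0.65), and *Cdh1* (0.38) and *Krt7* (0.52) did not pass. The study names *Krt8*, *Krt7* and *Cldn4* among its markers of luminal duct cells. No gene of the list passed as lower without day 5 replicate 1, 2 or 3 or without day 7 replicate 2. The same held with thinned counts and with glmTreat, so that *Krt8* lost its call in each of these fits. Markers of fibroblasts summed to 0.360 to 0.502 CPM at day 5 and to 1.92 to 2.94 CPM at day 7. The days did not overlap, which was also so for 30.9% of all genes tested. These sums rest on few counts, at most 2 of any gene over day 5 (*Col1a1*) and 6 over day 7 (*Dcn*). The 5-day sums lay under the floor of 3 counts, which is 1.08 to 1.51 CPM in those libraries. With edgeR 0 of the 4 tested passed, against 12.0% of all genes tested (1 had an unadjusted p under 0.05). Those of endothelium summed to 0.412 to 1.00 CPM at day 5 and to 0 to 1.15 CPM at day 7. Those of macrophages summed to at most 1.65 CPM at day 5 and to 3.45 to 6.85 CPM at day 7, nearly all from *Cd68*, which rose from 7 to 39 counts, while *Adgre1* and *Csf1r* had 0. The part of these cells in the member values was not tested.

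Libraries held 1918198 to 2837397 counts in genes. Reads that fell in no annotated gene or could belong to several took 13.7% to 14.4% of each library at day 5 and 9.12% to 9.74% at day 7, so this share moved with the day. The days were sampled from the same mice, but no label gives a library or sequencing batch, so day and any batch of preparation cannot be told apart.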

How the data were processed

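RNA of mSGOs from 3 mice at day 5 and day 7 was read with the Lexogen QuantSeq 3′ kit from 100 ng of RNA per library. The deposited files hold raw read counts per Ensembl gene ID, which the authors obtained after alignment to GRCm39; the aligner, annotation release and strand setting are not given in the sources used here. The 5 closing entries, which name no gene, entered neither library sizes nor tests. Names came from GENCODE vM39 by exact ID (43465 of 47643 matched).

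Genes counted (1 or more) in 2 libraries or more were tested with the quasi-likelihood F test of edgeR 4.0.16 (R 4.3.3), TMM scaling, day as the only term and Benjamini-Hochberg adjustment over all genes tested. The study's methods name edgeR, a filter on low counts and the thresholds of 0.6 and 0.05; the quasi-likelihood test, TMM and the design were chosen here. The SE of a log2 fold change was its absolute value divided by the square root of the F statistic. Its 95% interval used the normal distribution and is therefore narrower than one from the F test. The script was tested on simulated data. CPM are counts per 1000000 TMM-scaled counts. Intervals of levels are exact Poisson intervals at 95%; these and the floor of 3 counts cover counting error only, since molecular identifiers are not mentioned in the sources used here. Log2 CPM had a prior count of 2. Sequences were searched in Python 3.11.15, and transcript ends compared with BLAST+ 2.17.0.

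The members and gene lists were chosen with earlier results of these data known. Named were all members, the 3 genes most like each member whose mean was 5 CPM or more, and of each list up to 4 genes past the threshold with the smallest p and up to 2 not past it with the highest level. Other list genes (those at or near 0 counts, relatives of single members and *Drosha*) were named after their values were seen. Some genes that the rule names are not reported here.

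Replicate numbers name the mice in the sample titles, so that equal numbers pair a day 5 with a day 7 library. Over 8172 genes their deviations from the day mean correlated at 0.14, -0.10 and 0.16. Alternatives were other scalings, filters and designs, DESeq2 1.42.0, limma 3.58.1 voom, glmTreat, thinned counts and leaving out each library. The latter was applied to the ratios after the data were seen.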

Additional observations from a re-analysis of the deposited data

How the results depend on the processing

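Of the 6 members tested, *Sox2* and *Sox9* kept their call in every fit. *Hmga2* missed the threshold with filterByExpr (-0.79, adjusted p = 0.0582) and with thinned counts (-0.77, adjusted p = 0.0649), and *Pitx1* with limma voom (0.74, adjusted p = 0.0561). Under glmTreat, which tests against a change of 0.6, *Foxc1* (0.76), *Hmga2* (-0.79) and *Pitx1* (0.82) missed it with adjusted p of 0.439, 0.452 and 0.418, the highest over their alternatives with all libraries. The lowest were 0.00264, 0.00165 and 0.00132. No sign changed. The scalings moved the median of all genes by at most 0.10 (from -0.01 to -0.10 with library totals only). The cause of these differences was not tested.

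With 1 library left out, log2 fold changes ranged from 0.13 to 0.71 for *Trp63*, 0.67 to 0.87 for *Foxc1*, -1.17 to -0.61 for *Hmga2* and 0.46 to 1.01 for *Pitx1*. The ratios to *Hmga2* kept their sign. The count of genes past the threshold was 1901, 622 with glmTreat and 797 to 2576 without 1 library.

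The replicate block (the mouse) changed no member's call: *Foxc1* was 0.75, *Hmga2* -0.86 and *Pitx1* 0.76, and 2340 genes passed in all. It gave 2 calls instead of 1 among the p63 targets and the acinar markers (there *Aqp5* was added), and *Mcm2* brought the cycling genes to 10 of 10.

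Counts past the threshold in the lists moved as follows. Without a filter, 2 p63 targets passed. With filterByExpr, 0 acinar, 0 myoepithelial and 0 macrophage markers passed. With robust = TRUE, 0 acinar markers passed. With voom, 1 family relative and 0 acinar markers passed, and with thinned counts 1 family relative. With glmTreat there was 1 each among the relatives, the stem/progenitor, cycling and Schwann genes and 0 among the p63, ionocyte and macrophage genes. Without 1 library the counts ranged from 0 to 4 (relatives and p63 targets), 0 to 1 (let-7 axis, ionocyte and macrophage), 1 to 4 (FGF and KIT), 1 to 5 (stem/progenitor), 4 to 10 (cycling), 2 to 5 (epithelial), 0 to 2 (acinar) and 1 to 2 (Schwann).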

Other observations

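Other transcription factors of gland and ductal epithelium gave a list of 34 genes, of which 29 were tested and 6 passed (20.7%, against 12.0% of all genes tested), all higher at day 7 (7.22% of all genes), with a median log2 fold change of 0.37. Without day 7 replicate 1, 7 passed, 1 of them lower, and without day 7 replicate 3, 9 passed, all higher. *Ehf* and *Elf3*, ETS factors of luminal epithelium, were higher. *Ehf* had 157 ± 10.8 CPM at day 5 and 449 ± 145 at day 7 (SD, n = 3), which is 1.51 as a log2 fold change (edgeR adjusted p = 0.000219). *Elf3* had 18.5 ± 3.95 and 67.5 ± 27.3 CPM (1.86, edgeR adjusted p = 0.000410). *Tfcp2l1*, a grainyhead-like factor of ducts, had 264 ± 23.0 and 705 ± 310 CPM (1.42, edgeR adjusted p = 0.00198), with a mean above that of each progenitor factor at day 7. *Tfap2b*, an AP-2 factor, had 9 counts at day 5 and 89 at day 7 (3.13, edgeR adjusted p = 0.00130), a pattern close in size to that of *Sox2*. *Gata3* (1.00, edgeR adjusted p = 0.0243) and *Elf5*, with 0 and 26 counts, also passed and are named after their values were seen. *Klf4* (-0.08, edgeR adjusted p = 0.878) and *Runx1* (0.39, edgeR adjusted p = 0.187) did not pass. *Bhlha15*, which codes for the acinar factor MIST1, had 1 count in each day.

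Genes of FGF and KIT signalling, receptors that act on salivary progenitors, gave 3 of 12 tested past the threshold (25%, against 12.0% of all genes tested). *Fgf1*, a ligand, had 9.51 ± 1.56 CPM at day 5 and 57.3 ± 21.3 at day 7 (SD, n = 3), which is 2.57 as a log2 fold change (edgeR adjusted p = 2.06e-05). *Kitl*, the KIT ligand, had 142 ± 7.64 and 231 ± 29.3 CPM (0.70, edgeR adjusted p = 0.0191). *Dusp6*, an ERK phosphatase gene induced by FGF signals, was lower, with 177 ± 50.0 and 54.8 ± 46.2 CPM (-1.68, edgeR adjusted p = 0.00832). With the DESeq2 Wald test, with robust = TRUE, and without day 5 replicate 1 or day 7 replicate 2, no gene of the list passed as lower, so that *Dusp6* lost its call there. Without day 5 replicate 1 or day 7 replicate 2, 1 of the 12 passed. *Fgfbp1* (0.37, edgeR adjusted p = 0.253) and *Spred1* (0.28, edgeR adjusted p = 0.366) did not pass. The receptor gene *Kit*, a marker used for salivary stem cells, had 1 count in all, and the mesenchymal ligands *Fgf7* and *Fgf10* had 0.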
